A study of Mus musculus with 6 samples.

Results

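The transcripts described here are those of the NF-kB subunits and of the IkB proteins that bind them, 10 genes in all (Nfkb1, Nfkb2, Rel, Rela, Relb, Nfkbia, Nfkbib, Nfkbie, Nfkbiz and Bcl3) of 20289 named genes on the array. They were taken as every probe whose symbol, current or older, was that of a listed gene, which gave 12 of 45281 probes, with 2 probes each for Nfkbia and Nfkbie and 1 for each other gene. The cells were CD4 T helper cells carrying CD45.1, an allele of a leukocyte surface protein that tells donor from host cells, and were sorted from the spleens of tumour-bearing hosts 12 days after they had been transferred. The labels name the kind of cell transferred (Th9, Th1 or Th17), the spleen and the C57BL/6 strain. Every group shared the spleen, the strain, the sort and hosts that bore a tumour. Each kind had 2 Illumina bead arrays, 6 in all. The tumour, the hosts' age, the antigen receptor of the donor cells, the culture that made each kind and the number of animals behind an array are not given in the sources used here, and no group of cells that had not been transferred was analysed here.

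NF-kB is a family of transcription factors that work as pairs of Rel-domain proteins. Rela (p65), Rel (c-Rel) and Relb carry an activation domain, whereas Nfkb1 and Nfkb2 encode long precursors that are trimmed to the DNA-binding proteins p50 and p52. Classical IkB proteins (Nfkbia, Nfkbib and Nfkbie, encoding IkB alpha, beta and epsilon) hold these pairs in the cytoplasm until the IkB kinase marks them for destruction, as happens in T cells after signals from the antigen receptor, its co-receptors and cytokine receptors of the TNF and interleukin 1 families. The atypical members Nfkbiz (IkB zeta) and Bcl3 act in the nucleus, where they bind p50 or p52 and change which genes are read. Nfkbia, Nfkb2 and Relb are themselves classic target genes of NF-kB. A transcript level says nothing of how much of a subunit is in the nucleus, which was not measured.

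Detection was set per array by a noise threshold on the deposited intensity, which lay between 5.84 and 6.95 intensity units. Between 41.0 and 45.2% of probes were detected on an array, and mean intensities lay between 117.1, on Th1 replicate 2, and 171.1. T cell markers Cd3d, Cd3e and Cd3g were above the threshold on 6 of 6 arrays, Cd4 was dim on each (24.1 to 94.1 intensity units), and Cd8a was below it on 6 of 6 although Cd8b1 was above it on 6. In each kind 1 array is titled a repeat, with no word on what it repeats, so the spread behind a p-value is that of arrays and may be technical, and the number of arrays limits the precision. Log2 fold changes are those of limma's moderated test on quantile-normalised log2 intensity after normexp correction with an offset of 50, an offset that shrinks the changes of dim probes. They are given with their standard error, n = 2 arrays a kind, and Benjamini-Hochberg adjusted p-values over the 22460 probes detected on at least 2 arrays. The comparisons share arrays, so their values are set side by side and are not independent.

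Th9 cells had higher levels of Nfkbiz, Relb, Nfkb2 and Nfkbia than Th1 cells, Th17 cells had higher Bcl3 than both other kinds, and the levels of Rela and Nfkb1 passed the test in none of the 3 comparisons. The filter kept 11 of the 12 probes and 9 of the 10 genes, Rel being left out. Of the 11 probes, 5 were higher and 0 lower in Th9 than in Th1, where 7.88% of all probes passed, 4.09% higher and 3.79% lower. Against Th17, 2 were higher and 1 lower in Th9, where 14.9% of all probes passed, 7.45% higher and 7.5% lower. Th17 against Th1 gave 3 higher and 0 lower, where 11.8% passed, 5.99% higher and 5.77% lower. The median log2 fold change of the 11 probes was 0.15, 0.14 and 0.14 in these comparisons, against 0.01, -0.0025 and 0.01 over all probes tested. The members were chosen with earlier results of these data known, so the counts and medians are a description. These bulk values cannot tell more RNA per cell from more cells that hold it.

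The calls depended on the background setting. Without any background correction or offset, 0 of the 11 member probes passed in each comparison, and the adjusted p-values of the 11 values called above lay between 0.0769 and 0.233, all with the same direction. Of all probes, 261 passed there in Th9 against Th1, 749 in Th9 against Th17 and 387 in Th17 against Th1. Without correction but among the probes detected on all 6 arrays, with a spread that depends on the level, a setting chosen after the data were seen, 4, 3 and 2 member probes passed in the 3 comparisons. These were the probes of Nfkb2, Nfkbia, Nfkbiz and Bcl3 called above. Among all probes kept in that setting, 769 passed as higher and 823 as lower in Th9 against Th1. The counts were 1474 and 1543 in Th9 against Th17, and 1191 and 1202 in Th17 against Th1. How many probes that setting kept is not given here, so the member counts have no share of all probes beside them. Relb was not among the probes kept there.

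**Figure D1:**
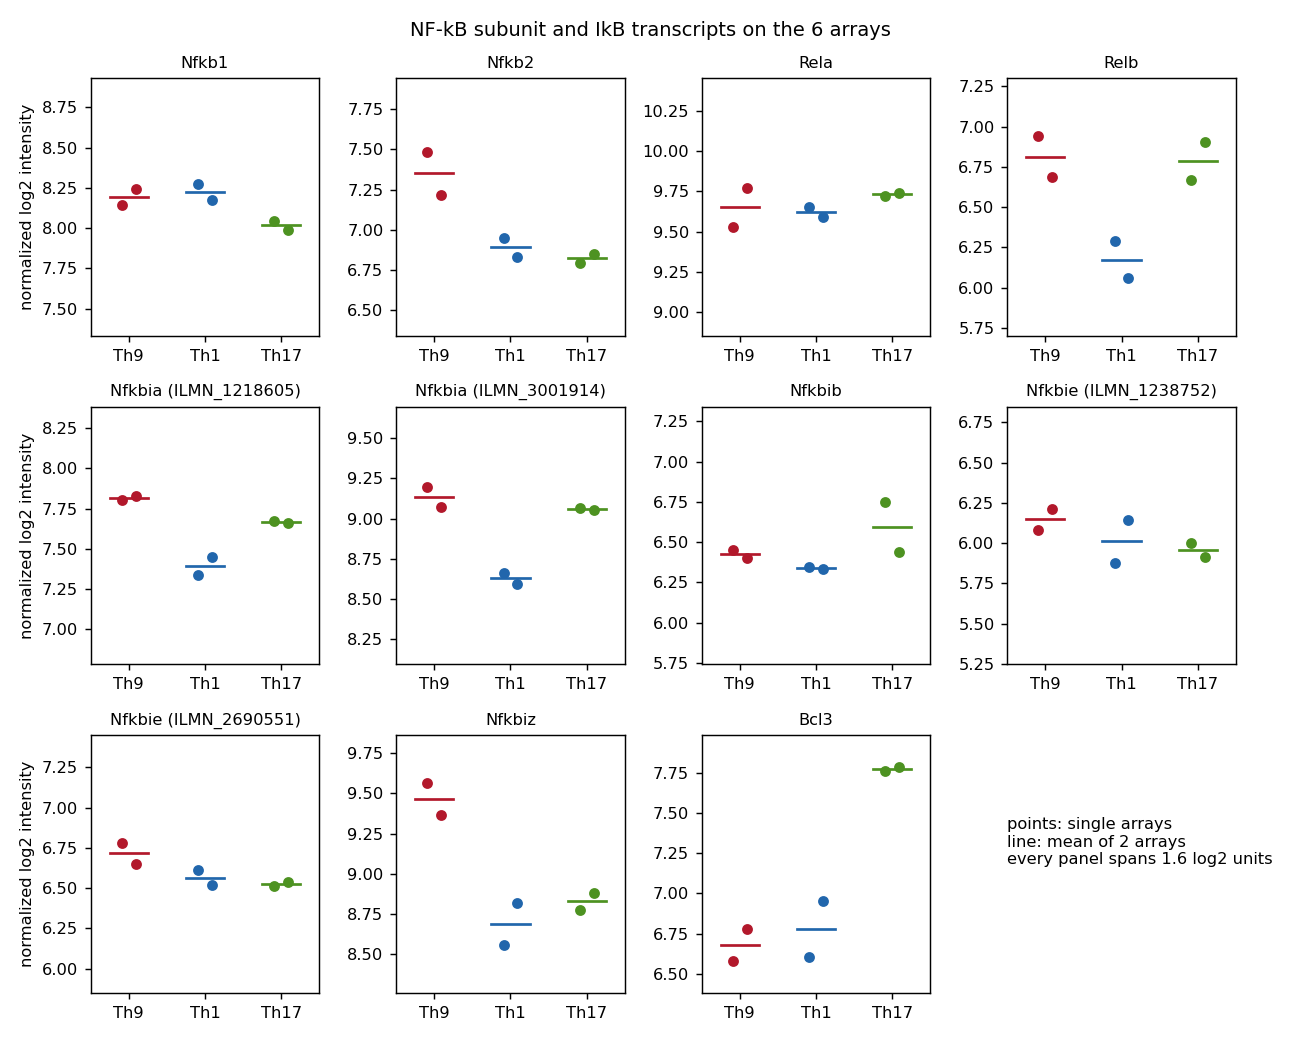
Normalised log2 intensity (vertical axis, the same span in every panel) of the 11 tested probes in Th9, Th1 and Th17 cells, with a point for each of the 2 arrays and a line at their mean. Nfkbiz and Nfkb2 stood highest in Th9, Relb and both Nfkbia probes lowest in Th1, and Bcl3 highest in Th17, while Rela lay within a narrow range.

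The activating subunits differed among themselves. Rela, the main activating subunit of the classical pathway (chr19:5637442-5648134 on GRCm38), had deposited intensities of 659.3 and 912.9 in Th9, 915.3 and 868.6 in Th17, and 694.7 and 542.8 in Th1. Its arrays overlapped between Th9 and both other kinds after normalization. The log2 fold change was 0.03 ± 0.11 for Th9 against Th1 (95% interval -0.21 to 0.26) and -0.08 ± 0.11 against Th17 (-0.31 to 0.15), and 0.11 ± 0.11 for Th17 against Th1 (-0.13 to 0.34), with adjusted p between 0.636 and 0.94. The intervals leave room for changes of these sizes, so Rela is not shown to be equal in the 3 kinds.

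Rel, which encodes c-Rel, the subunit tied to interleukin 2 production in T cells (chr11:23736847-23770969), could not be compared. Its probe read 2.3 and -1.0 in Th9, -1.1 and 2.2 in Th17, and 1.4 and 6.2 in Th1. It was below the detection threshold on 6 of 6 arrays, and 1 probe says nothing of the transcript parts that it does not read.

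Relb, the partner of p52 in the alternative pathway (chr7:19606217-19629438), was low in Th1 cells. Its intensities were 62.4 and 51.2 in Th9, 49.1 and 65.2 in Th17, and 15.4 and 5.7 in Th1, where 1 of 2 arrays was above the threshold. Th9 and Th17 overlapped, and both lay above Th1. Relb rose by 0.64 ± 0.12 in Th9 over Th1 (adjusted p = 0.00185) and by 0.61 ± 0.12 in Th17 over Th1 (adjusted p = 0.00211), and the difference between Th9 and Th17 was 0.03 ± 0.12 (-0.23 to 0.29, adjusted p = 0.944). The size rests on the offset, since without background correction the values were 2.22 and 2.16. The first call was lost without Th9 replicate 1 (0.51, adjusted p = 0.0659) and the second without Th17 replicate 2 (0.49, adjusted p = 0.0707).

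The precursor genes split as well. Nfkb1 (chr3:135584655-135691969), whose p105 precursor gives p50 and also acts as an IkB, read 221.3 and 284.6 in Th9, 243.5 and 214.7 in Th17, and 224.3 and 166.1 in Th1. After normalization Th9 and Th1 overlapped and Th17 lay just below both. The log2 fold changes were -0.03 ± 0.11 for Th9 against Th1, 0.18 ± 0.11 for Th9 against Th17 and -0.21 ± 0.11 for Th17 against Th1, and the smallest adjusted p was 0.262.

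Nfkb2, whose p100 precursor gives p52 and restrains Relb until it is trimmed (chr19:46300994-46312400), was the subunit gene that separated Th9 from both other kinds. Its intensities were 118.5 and 105.7 in Th9, 60.2 and 60.3 in Th17, and 56.3 and 38.8 in Th1. The 2 Th9 arrays lay above the 4 others, and Th1 and Th17 overlapped after normalization. Nfkb2 rose by 0.46 ± 0.11 in Th9 over Th1 (adjusted p = 0.0146) and by 0.53 ± 0.11 over Th17 (adjusted p = 0.00267), with -0.07 ± 0.11 for Th17 against Th1 (-0.31 to 0.17, adjusted p = 0.786). Against Th1 the call was lost without Th9 replicate 1 (0.33, adjusted p = 0.239), without Th1 replicate 2 (0.41, adjusted p = 0.0806) and with an offset of 16 (0.61, adjusted p = 0.0766). Against Th17 it was lost without Th9 replicate 1 (0.40, adjusted p = 0.0806).

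Among the classical inhibitors Nfkbia stood apart. It encodes IkB alpha, which NF-kB induces within minutes and which then shuts NF-kB off (chr12:55489409-55492647). The brighter probe, ILMN_3001914, read 516.9 and 554.6 in Th9, 552.8 and 508.4 in Th17, and 311.0 and 241.9 in Th1. The dimmer probe, ILMN_1218605, read 162.8 and 194.8 in Th9, 170.4 and 159.1 in Th17, and 90.6 and 82.2 in Th1. On both probes the Th1 arrays lay below the 4 others.

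Nfkbia rose in Th9 over Th1 by 0.51 ± 0.11 on the brighter probe (adjusted p = 0.00378) and by 0.42 ± 0.11 on the dimmer (adjusted p = 0.0158). In Th17 over Th1 it rose by 0.43 ± 0.11 on the brighter probe (adjusted p = 0.00975), and the dimmer gave 0.28 ± 0.11 (adjusted p = 0.108), which passed when scaled to the array median (0.59, adjusted p = 0.00411). With that scaling the median over all probes was 0.13, and 3700 of all probes passed as higher and 378 as lower. The Th9 arrays lay above the Th17 arrays after normalization on both probes, but by only 0.07 ± 0.11 and 0.14 ± 0.11, which did not pass (adjusted p = 0.774 and 0.47). The Th9 call of the brighter probe was lost without Th9 replicate 1 (0.45, adjusted p = 0.0714) and with an offset of 16 (0.55, adjusted p = 0.0705), and that of the dimmer without Th9 replicate 1, Th9 replicate 2 or Th1 replicate 1 (adjusted p = 0.0891, 0.106 and 0.0839) and with an offset of 16 (0.51, adjusted p = 0.0899). The Th17 call was lost without Th1 replicate 2, Th17 replicate 1 or Th17 replicate 2 (adjusted p = 0.0598, 0.0713 and 0.0721) and with an offset of 16 (0.47, adjusted p = 0.0902).

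The other classical inhibitors passed in none of the 3 comparisons. Nfkbib (IkB beta, chr7:28758251-28766644) was dim, and its Th9 arrays read 27.6 and 29.9, its Th1 arrays 18.0 and 15.4 and its Th17 arrays 55.9 and 28.8, where the arrays of 1 kind were far apart. Its largest change was 0.25 ± 0.12 in Th17 against Th1 (adjusted p = 0.189). Nfkbie (IkB epsilon, chr17:45555700-45563169) read 50 and 48.5 in Th9, 37.1 and 35.5 in Th17, and 33.3 and 23.0 in Th1 on probe ILMN_2690551. Th9 lay above the others on that probe without passing, at 0.15 ± 0.11 against Th1 and 0.19 ± 0.11 against Th17 (adjusted p = 0.497 and 0.295). Its other probe, ILMN_1238752, was above the threshold on 3 of 6 arrays and gave 0.14 ± 0.12 and 0.19 ± 0.12 (adjusted p = 0.594 and 0.348).

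The atypical members Nfkbiz and Bcl3 were highest in different kinds of cell, and at an offset of 50 their changes were the largest among the members. At an offset of 16 Relb (1.04 in Th9 against Th1) exceeded Nfkbiz (0.83), and without background correction Relb (2.22) exceeded both Nfkbiz (0.88) and Bcl3 (-1.92). Nfkbie probe ILMN_1238752, near background, gave 2.38 in Th9 against Th17 without correction, which exceeded Relb but did not pass (limma, adjusted p = 0.47). Nfkbiz, a nuclear IkB whose protein supports a part of the NF-kB response (chr16:55811375-55838954), read 676.1 and 680.0 in Th9, 445.8 and 441.7 in Th17, and 284.3 and 292.5 in Th1. The Th9 arrays lay above the 4 others, and Th1 and Th17 overlapped after normalization. Nfkbiz rose by 0.78 ± 0.12 in Th9 over Th1 (1.71-fold, adjusted p = 0.000145) and by 0.63 ± 0.12 over Th17 (1.55-fold, adjusted p = 0.000672). Th17 against Th1 gave 0.14 ± 0.12 (adjusted p = 0.54), and passed when scaled to the array median (0.49, adjusted p = 0.00898). Under that scaling 3700 of all probes passed as higher and 378 as lower, with a median of 0.13 over all probes. Both Th9 calls were kept without each array in turn and with an offset of 16. IkB zeta is known for its part in Th17 differentiation in mice, and here its transcript was lower in Th17 than in Th9.

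Bcl3, a nuclear IkB that binds p50 and p52 pairs (chr7:19808462-19822824), ran the other way. Its intensities were 186.3 and 178.6 in Th17, 35.5 and 60.0 in Th9, and 32.9 and 45.5 in Th1. The 2 Th17 arrays lay far above the 4 others, and Th9 and Th1 overlapped. The log2 fold change was -1.09 ± 0.12 in Th9 against Th17 (2.14-fold higher in Th17, adjusted p = 2e-06) and 0.99 ± 0.12 in Th17 against Th1 (1.99-fold, adjusted p = 1.16e-05), and -0.10 ± 0.12 in Th9 against Th1 (-0.36 to 0.16, adjusted p = 0.739). Both calls were kept without each array in turn and with an offset of 16. Without background correction the values were -1.92 and 1.70, since the offset shrinks a change between dim and brighter arrays.

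**Figure D2:**
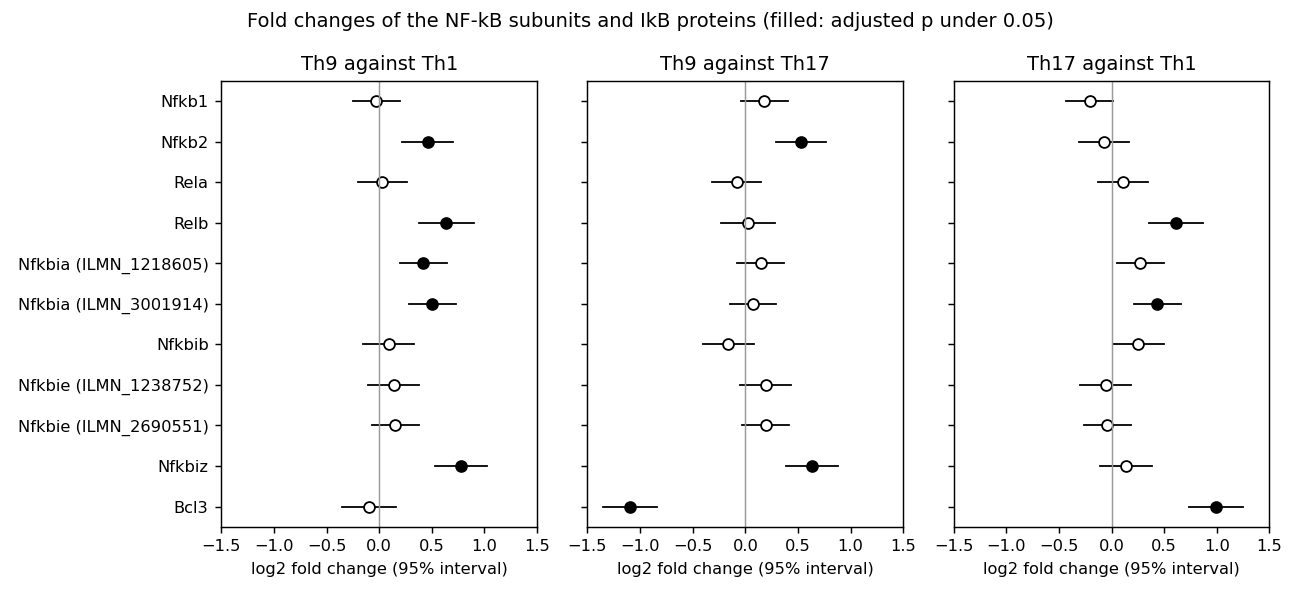
Log2 fold change (horizontal axis) of each of the 11 tested probes in the 3 comparisons, with 95% intervals from limma's fit over 6 arrays and filled circles where the adjusted p was below 0.05. In Th9 against Th1 the filled circles were Nfkb2, Relb, both Nfkbia probes and Nfkbiz, and Bcl3 was filled only in the comparisons that hold Th17.

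The start regions at hand were read for the kappa B decamer consensus, the letters that NF-kB pairs bind, on both strands. RefSeq start regions on GRCm38.p6 covered 7 of the 10 genes (all but Nfkb1, Relb and Nfkbiz), in 9 windows because Nfkb2 has 3, and the 250 bases before each start were searched. The consensus was found in 6 of these 9 windows and 4 of the 7 genes (Nfkb2, Nfkbia, Nfkbie and Rel), against 7.25% of all 32851 windows. The 4 below are those of Nfkbia and Nfkb2, which rose in Th9 over Th1, and of Bcl3, which rose in Th17. Capitals mark the matches.
Nfkbia, chr12:55492648-55492897, minus strand: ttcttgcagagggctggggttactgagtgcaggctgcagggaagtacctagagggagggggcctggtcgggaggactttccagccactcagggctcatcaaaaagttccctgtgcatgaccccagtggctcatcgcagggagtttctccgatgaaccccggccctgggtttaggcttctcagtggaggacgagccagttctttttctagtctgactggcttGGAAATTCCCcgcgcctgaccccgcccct
Nfkb2, chr19:46304487-46304736, plus strand: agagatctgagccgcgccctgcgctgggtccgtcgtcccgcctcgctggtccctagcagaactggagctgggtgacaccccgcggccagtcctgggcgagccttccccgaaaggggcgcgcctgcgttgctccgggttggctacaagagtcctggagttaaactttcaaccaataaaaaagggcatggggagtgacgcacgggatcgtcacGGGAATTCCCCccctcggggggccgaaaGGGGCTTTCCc
Nfkb2, chr19:46305680-46305929, plus strand: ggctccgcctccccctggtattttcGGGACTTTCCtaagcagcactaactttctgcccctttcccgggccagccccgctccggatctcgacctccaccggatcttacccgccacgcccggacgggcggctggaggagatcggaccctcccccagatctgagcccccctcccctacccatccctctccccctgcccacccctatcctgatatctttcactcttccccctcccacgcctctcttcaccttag
Bcl3, chr7:19822756-19823005, minus strand: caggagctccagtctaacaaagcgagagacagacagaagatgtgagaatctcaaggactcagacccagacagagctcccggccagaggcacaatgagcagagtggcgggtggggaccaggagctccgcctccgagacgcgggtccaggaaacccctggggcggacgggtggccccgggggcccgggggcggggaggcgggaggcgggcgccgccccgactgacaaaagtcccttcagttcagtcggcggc
In Nfkbia the match GGAAATTCCC lay 29 to 20 bases before the start. The first Nfkb2 window held GGGAATTCCC, which matches on both strands and overlaps another match moved by 1 base, and GGGGCTTTCC 11 to 2 bases before the start. The other Nfkb2 window printed held GGGACTTTCC 225 to 216 bases before its start, and the one not printed (chr19:46305445-46305694) held GGAATGTCCC 236 to 227 bases before its start. Bcl3 had 0 matches in its window. Nfkbie, with 1 match, passed in no comparison, and Rel, with 2 overlapping matches, was not detected. A match is a string of letters and not a measured site.

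Genes that carry signals to NF-kB were read from a list of 33, of which 28 were tested. In Th9 against Th1, 2 were higher and 1 lower, where 10.1% of named genes passed (5.43% higher and 4.64% lower), with a list median log2 fold change of -0.09 against 0.01 over all named genes. Traf6, an adaptor of interleukin 1 and Toll-like receptors, was higher (0.52 ± 0.11, adjusted p = 0.003), as was Cul1, a scaffold of the ligase that marks IkB for destruction (0.47 ± 0.12, adjusted p = 0.012), and Traf1, a TNF receptor adaptor, was lower (-0.60 ± 0.11, adjusted p = 0.000652). Of 2 other Traf6 probes 1 passed in the same direction, and the other Cul1 probe did not pass in the same direction. The count was between 2 and 4 without each array in turn, lowest without Th9 replicate 2.

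In Th9 against Th17, 3 of the 28 were higher and 5 lower, where 18.2% of named genes passed (9.63% higher and 8.56% lower), with a median of -0.16 against 0.01. Malt1, the protease that joins the antigen receptor to the IkB kinase, was lower in Th9 (-0.62 ± 0.12, adjusted p = 0.00116), as were Prkcq, the kinase PKC theta of the same route (-0.46 ± 0.12, adjusted p = 0.0103), and Map3k14, the NF-kB inducing kinase that starts the trimming of p100 (-0.36 ± 0.11, adjusted p = 0.0397). Traf5 was also lower (-0.39 ± 0.11, adjusted p = 0.0203) and was detected on 0 of the 2 Th9 arrays. Map3k7, the kinase TAK1 (0.49 ± 0.11, adjusted p = 0.00333), Tank, a TRAF-binding adaptor (0.47 ± 0.11, adjusted p = 0.00556), and Cul1 (0.36 ± 0.12, adjusted p = 0.0411) were higher. Of their other probes 0 of 1, 0 of 2 and 0 of 1 passed in the same direction. The count of 8 fell to 2 without Th9 replicate 2, to 5 without Th9 replicate 1 and to 3 without either Th17 array.

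In Th17 against Th1, 4 were higher and 2 lower, where 14.2% of named genes passed (7.14% higher and 7.05% lower), with a median of 0.10 against 0.0045. Ikbkb, the catalytic IkB kinase beta, was higher in Th17 (0.54 ± 0.13, adjusted p = 0.00619), together with Myd88 (0.53 ± 0.13, adjusted p = 0.0106), Malt1 (0.46 ± 0.12, adjusted p = 0.0154) and Prkcq (0.37 ± 0.12, adjusted p = 0.0475), and Traf1 and Map3k7 were lower (-0.39 ± 0.11 and -0.38 ± 0.11, adjusted p = 0.0192 and 0.0294). Myd88, Traf1 and Map3k7 each had 1 other probe, which did not pass in the same direction. The count of 6 was 0 without Th17 replicate 2, 1 without Th17 replicate 1, 2 without Th1 replicate 2 and 4 without Th1 replicate 1. With arrays scaled to their median it was 13, all higher, where 3700 of all probes passed as higher and 378 as lower.

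Of 16 tested negative regulators and other IkB-related genes, Th9 cells had 0 higher and 1 lower against Th1 and 1 higher and 0 lower against Th17, and Th17 cells had 2 higher and 2 lower against Th1. These are 6.25%, 6.25% and 25% of the list, where 10.1%, 18.2% and 14.2% of all named genes passed. The A20 gene Tnfaip3, a ubiquitin-editing brake that NF-kB induces, gave 0.15 in Th9 against Th1, -0.07 in Th9 against Th17 and 0.21 in Th17 against Th1, and passed in none. Nlrc5, best known as the activator of MHC class I genes, was lower in Th9 and in Th17 than in Th1 (-1.56 ± 0.12 and -1.25 ± 0.12, adjusted p = 2.31e-08 and 4.51e-07). Nfkbid, an atypical IkB outside the 10 genes, was higher in Th17 than in Th1 (0.38 ± 0.11, adjusted p = 0.0252), as was Nlrc3 (0.35 ± 0.10, adjusted p = 0.0313), while Cyld, a deubiquitinase, was lower (-0.43 ± 0.12, adjusted p = 0.0238) on 1 of its 2 probes. Commd1, which promotes the turnover of Rela, was higher in Th9 than in Th17 (0.45 ± 0.12, adjusted p = 0.0124). Without Th9 replicate 1 the Th9 against Th17 count was 0, and it was 2 without either Th1 array. The Th17 against Th1 count was 1 without Th1 replicate 1 and 2 without either Th17 array.

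Genes known as NF-kB targets passed the test in 55.2% of tested members in each Th9 comparison and 48.3% in Th17 against Th1, in both directions, where 10.1% (Th9 against Th1), 18.2% (Th9 against Th17) and 14.2% of all named genes passed. The list was chosen with earlier results of these data known, so these shares are a description. Of 36 listed, 29 were tested, and Xiap, Csf2, Il6, Ccl3, Cxcl10, Cd40lg and Vcam1 did not pass the filter. In Th9 against Th1, 8 were higher and 8 lower, where 5.43% of named genes were higher and 4.64% lower, with a median of 0.11 against 0.01 over all named genes. Irf4, a factor of activated T cells (1.35 ± 0.11, adjusted p = 3.25e-08), the survival genes Bcl2a1b (0.95 ± 0.11, adjusted p = 4.88e-06) and Bcl2a1d (0.76 ± 0.11, adjusted p = 0.000119) and Cd83, a surface protein of activated lymphocytes (0.88 ± 0.11, adjusted p = 1.24e-05), were higher. Irf1 (-1.19 ± 0.10, adjusted p = 1.41e-07), the chemokine gene Ccl5 (-0.85 ± 0.12, adjusted p = 9.16e-05), Tap1, a peptide transporter for MHC class I (-0.77 ± 0.13, adjusted p = 0.00038), and Traf1 were lower, and Irf1 and Tap1 are also interferon gamma targets. Scaling to the median instead gave 10 higher and 2 lower, where 2084 of all probes passed as higher and 272 as lower. Bcl2a1b and Bcl2a1d are near-identical copies, so which copy a probe read is uncertain.

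In Th9 against Th17, 12 targets were higher and 4 lower, where 9.63% of named genes were higher and 8.56% lower, with a median of 0.13 against 0.01. The increases were led by Irf4 (2.32 ± 0.11, adjusted p = 7.67e-12), Bcl2a1d (1.56 ± 0.11, adjusted p = 5.08e-09), Bcl2a1b (1.55 ± 0.11, adjusted p = 2.96e-09) and Cd83 (1.51 ± 0.11, adjusted p = 4.4e-09). Ier3, an early response gene (-0.72 ± 0.11, adjusted p = 6.97e-05), the lymphotoxin beta gene Ltb (-0.58 ± 0.13, adjusted p = 0.00317), Cflar, an inhibitor of death receptor signals (-0.54 ± 0.11, adjusted p = 0.00129), and Irf1 (-0.35 ± 0.10, adjusted p = 0.0269) were lower. In Th17 against Th1, 2 were higher and 12 lower, where 7.14% of named genes were higher and 7.05% lower, with a median of -0.28 against 0.0045. Ier3 (0.98 ± 0.11, adjusted p = 3.02e-06) and Cflar (0.48 ± 0.11, adjusted p = 0.00465) were higher, and Ccl5 (-1.99 ± 0.12, adjusted p = 1.14e-09), the lymphotoxin alpha gene Lta (-1.16 ± 0.11, adjusted p = 2.93e-07), Irf4 (-0.97 ± 0.11, adjusted p = 2.29e-06) and Irf1 (-0.84 ± 0.10, adjusted p = 1.21e-05) were lower. Scaling to the median instead gave 4 higher and 7 lower, where 3700 of all probes passed as higher and 378 as lower. Th17 cells had higher Bcl3, Relb and Nfkbia (on its brighter probe only) than Th1 cells, and lower levels of 12 of these targets. A link between the members and these targets was not tested.

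**Figure D3:**
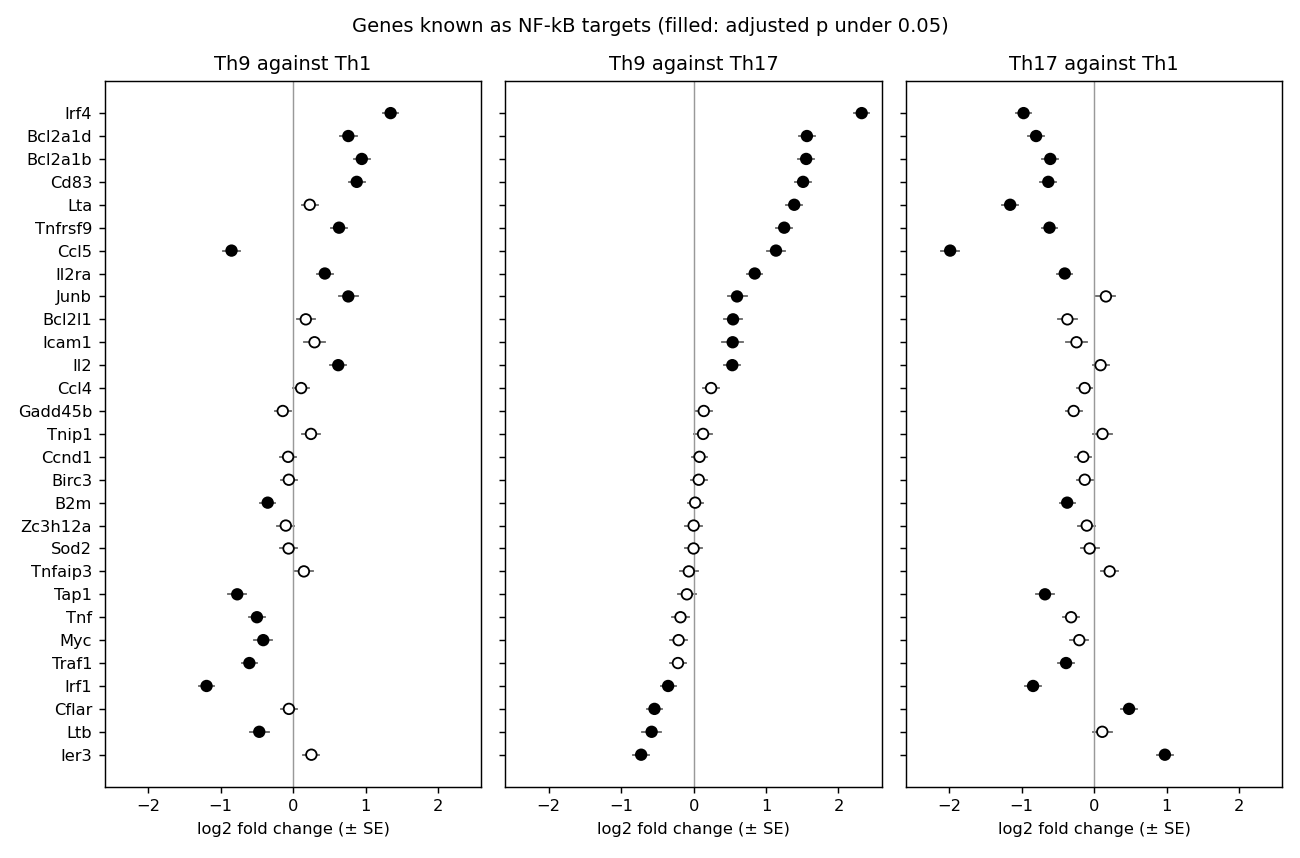
Log2 fold change with its standard error (horizontal axis) of the 29 tested target genes in the 3 comparisons, ordered by Th9 against Th17, with filled circles where the adjusted p was below 0.05. Irf4, Bcl2a1b, Bcl2a1d and Cd83 lie to the right in both Th9 comparisons and to the left in Th17 against Th1, whereas Ccl5 lies to the left in Th9 against Th1 and to the right in Th9 against Th17.

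Genes of a further list, which shares Junb and Ier3 with the target list, moved in the same comparisons. Immediate early and handling genes, which respond to recent stimulation and to the handling of cells, were tested in 18 members. Of these, 7 were higher and 0 lower in Th9 against Th1, 9 and 0 in Th17 against Th1, and 5 and 3 in Th9 against Th17. Over all named genes 5.43% were higher and 4.64% lower in the first, 7.14% and 7.05% in the second, and 9.63% and 8.56% in the last. Their summed normalised intensity was 4942 to 5073 in Th9, 4792 to 5063 in Th17 and 3350 to 3546 in Th1. Relb and Nfkbia were also lowest in Th1. Single genes of the list had other orders. Like Nfkbiz and Nfkb2, Egr1, Egr2 and Junb were higher in Th9 than in both other kinds. They gave 1.18, 1.55 and 0.76 against Th1 and 0.38, 1.11 and 0.60 against Th17. Like Bcl3, Zfp36 and Ier3 were highest in Th17. They gave -1.24 and -0.72 in Th9 against Th17, and 1.04 and 0.98 in Th17 against Th1. The part of these genes in the member results was not tested.

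B cells and dendritic cells also express Relb and Nfkb2. Of 15 B cell markers 13 had a probe and 9 were tested, and their summed intensity was 2241 to 2510 in Th9, 2344 to 2611 in Th1 and 1158 to 1218 in Th17. Igkc (3.59) and Cd79b (1.55) were higher and Ighm (-0.57) lower in Th9 than in Th17, and in Th9 against Th1 Cd79b (0.45) was higher and Ighm (-0.52) and Fcrla (-0.39) lower. Igkc, Ighm, Cd79b and Fcer2a were above the threshold on 6 of 6 arrays, and Pax5, Cr2 and Bank1 were below it on 6. Of 15 myeloid and dendritic cell markers 6 were tested, with sums of 218.1 to 289.6 in Th9, 229.3 to 274 in Th1 and 235.8 to 247.1 in Th17. Lyz2 was above the threshold on 6 of 6 arrays (105.6 to 169.8 intensity units), Csf1r and Csf3r on 5 and Cd68 on 4. Itgam, Itgax, Xcr1, Clec9a and Cd14 were below it on 6 of 6 arrays. Adgre1 passed as higher in Th9 than in Th1 and Th17 (adjusted p = 0.00663 and 0.00332), and was detected on 2 of 2 Th9 arrays and on 0 of 2 in each other kind, where it was not above background. T cell markers summed to 22510 to 22910 in Th9, 24630 to 25700 in Th1 and 29310 to 30260 in Th17. Of 10 tested, 6 were lower in Th9 against Th17, 3 higher in Th17 against Th1 and 1 higher in Th9 against Th1. Over all named genes the shares in these directions were 8.56%, 7.14% and 5.43%. Cd8b1 gave 0.96 in Th9 against Th17 and -1.10 in Th17 against Th1, and passed in both. Erythroid and platelet markers summed to 676.2 to 732.9 in Th9, 128.2 to 140.5 in Th1 and 118.4 to 208.7 in Th17. Of 7 tested, 2 were higher in Th9 against each other kind, where 5.43% (Th1) and 9.63% (Th17) of named genes were higher. The part of these cells in the Nfkb2, Nfkbiz and Bcl3 results was not tested.

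The genes most like a member over the 6 arrays were taken for Bcl3, Nfkbiz and Relb, the 3 members with the largest changes, by the distance between mean-centred log2 values over 12092 other genes. For Bcl3 they were Neu1, a lysosomal sialidase (distance 0.17), Upp1, a uridine phosphorylase (0.22), and Ccdc126 (0.26), against a median distance of 1.28 over all genes. For Nfkbiz they were Grap, an adaptor of lymphocyte receptors (0.17), Septin8 (0.20) and Dusp3, a phosphatase (0.20), against a median of 0.91. For Relb they were Psen2, a presenilin (0.23), Ptprv (0.23) and Cnr2, a cannabinoid receptor of immune cells (0.26), against 0.84. The 6 points share arrays and scaling, so this is a description.

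**Figure D4:**
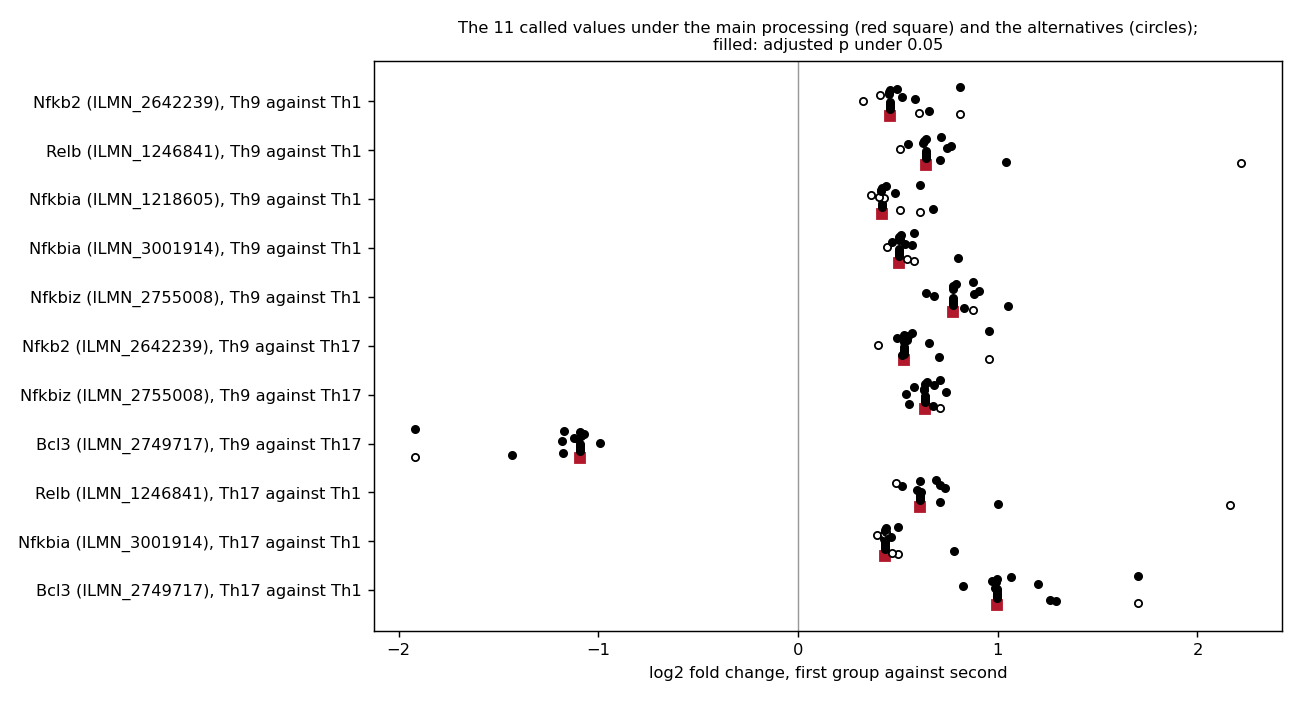
Log2 fold change (horizontal axis) of the 11 called values under the reported processing (red squares) and under the alternatives that change a value (circles), filled where the adjusted p was below 0.05. All circles lie on the same side of 0 as their square, and the open circles at -1.92 for Bcl3 and 2.22 for Relb are those without background correction.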

How the data were processed

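Biotinylated cRNA was made for Illumina bead arrays, per the labels' protocols. The values used are the deposited intensity values of the series' value table, which centre near 0 and fall below it for 29.6 to 31.7% of probes, as after subtraction of a background. The scanner software and the method of background and scaling are not stated in the sources used here. A further table that was deposited has 12 columns whose names match no sample, so it and its detection p-values were not used. A noise rule, fixed as the fallback, replaced them: a probe was detected above 1.645 times the quadratic mean of that array's negative values.

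Values were corrected by normexp (offset 50), quantile-normalised, put on the log2 scale and fitted over 6 arrays with limma 3.58.1 in R 4.3.3 (3 residual and 15.7 prior degrees of freedom). Every probe of a member was tested. Genes of other lists were read by their brightest probe. The test was tried on simulated data. Probes were named through GEO's platform annotation and RefSeq, and 9497 of 45281 had no name. Named list genes were up to 4 each way and comparison with the largest change among called genes whose arrays did not overlap. The others were named after their values were seen. The members and lists were chosen with earlier results of these data known. In all, 16 alternatives were planned and 2 added.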

Additional observations from a re-analysis of the deposited data

How the results depend on the processing

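With 2 arrays a kind and 6 in all, the number of arrays limits what can be told apart, and dim probes (Relb, Nfkbib, Nfkbie) lie close to background, where the offset sets the size of a change. The words for the arrays give no culture or animal behind a repeat. The called member values kept their direction under every alternative run. In 158 cases they also stayed past the threshold, and in 37 they did not. Changes of member values that were not called turned sign in 17 cases, and 2 passed the threshold, both with arrays scaled to their median. Where no cause is named below, the cause was not tested.

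The counts below are for Th9 against Th1, then Th9 against Th17, then Th17 against Th1, with 1770, 3357 and 2642 of all probes, 5, 3 and 3 member probes and 19, 25 and 23 list genes in the reported processing. List genes are the 68 tested genes of the signalling, negative regulator and target lists, each counted once. Without background correction limma called 0, 0 and 0 member probes, 261, 749 and 387 of all probes and 1, 5 and 3 list genes. With an offset of 16 it called 2 member probes in Th9 against Th1, 964, 2228 and 1531 of all probes and 12, 15 and 11 list genes. A log2 fold change of at least 1, which by construction leaves fewer, gave 0, 1 and 0 member probes, 236, 439 and 263 of all probes and 3, 7 and 3 list genes. Scaling to the median gave 5 member probes and 4078 of all probes in Th17 against Th1. It moved the median of all probes to 0.11 in Th9 against Th1 and 0.13 in Th17 against Th1, so the splits of higher and lower probes went from 918 and 852 to 2084 and 272, and from 1345 and 1297 to 3700 and 378. Leaving out 1 array in turn gave 1021 to 1728, 2033 to 3912 and 1384 to 2540 of all probes, 1 to 5, 2 to 3 and 1 to 3 member probes, and 14 to 17, 15 to 26 and 12 to 24 list genes. Member probes were fewest without Th9 replicate 1 in the first comparison and without Th17 replicate 2 in the last.

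Of the changes not called, scaling to the median turned Nfkb1 (0.2654) and Bcl3 (0.0879) in Th9 against Th1, Relb (-0.0004) in Th9 against Th17, and Nfkb1 (0.1522), Nfkb2 (0.1384) and Nfkbie ILMN_2690551 (0.1058) in Th17 against Th1. Set against the median shift of all probes under that scaling, Bcl3 (-0.0199), Relb (0.0221) and Nfkbie ILMN_2690551 (-0.0193) kept their direction. Leaving out 1 array in turn gave changes on both sides of 0 for these values that were not called. In Th9 against Th1 they were -0.0774 to 0.0214 for Nfkb1, -0.2765 to 0.0769 for Bcl3 and -0.0908 to 0.1478 for Rela. In Th9 against Th17 they were -0.2001 to 0.0403 for Rela and -0.1024 to 0.1499 for Relb. In Th17 against Th1 they were -0.0888 to 0.0055 for Nfkbie ILMN_2690551 and -0.194 to 0.0795 for Nfkbie ILMN_1238752.

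Deviations of same-numbered arrays over all kept probes correlated at -0.02, -0.03 and 0.02, so no strong shared deviation was seen. These values cannot tell whether same-numbered arrays shared a culture, a host or a day. The fit with a replicate block called 1712, 3271 and 2578 of all probes and 5, 3 and 3 member probes. An offset of 50 without normexp, and no correction with a level-dependent spread among probes detected on all 6 arrays, were chosen after seeing the data. The former kept the 11 member calls.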
